A study of Mus musculus with 5 samples.

Results

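The miR-29 family was described in dendritic cells grown from mouse bone marrow (BMDCs) and measured on 1-colour Agilent miRNA arrays. Its members were every mouse miRNA on the array named miR-29a, miR-29b or miR-29c, with either arm of the hairpin, and this gave 7 of the 1122 mouse miRNAs, 3 of them 3p arms and 4 of them 5p arms. The cells came from C3H/HeJ mice, a strain that carries a defective TLR4, and were grown with recombinant GM-CSF and IL-4 and then sorted for CD11c with magnetic beads. Flagellin-treated BMDCs (3 arrays) received 100 ng/ml of flagellin (FliC), the bacterial protein that TLR5 recognizes, for 24 h, and the control BMDCs (2 arrays) were kept in medium alone for the same time. The comparison asks which miRNAs differ in level after TLR5 stimulation. The labels do not say that the replicates came from separate cultures or animals, so p-values measure only the spread between these samples, which may be technical, and the number of arrays limits the precision. RNA was taken from whole cell populations, in which fewer cells of a kind and less RNA per cell cannot be told apart.

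Mature miRNAs are cut from a hairpin precursor, and the arm that is loaded into the silencing complex finds its targets mainly through its seed, the bases near its 5′ end. In the miR-29 family the 3p arm is the guide in most tissues, and the 5p arm is the passenger strand. The family is known for repressing collagens and other matrix genes, DNA methyltransferases and the survival gene Mcl1, and in immune cells it has been linked to the cytokine chain IL-12 p40 in dendritic cells and to interferon-γ and T-bet in T cells.

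The mature sequences are shown because the members are told apart by few bases, and probes read those bases. All 7 were found in the RefSeq miRNA table of GRCm38.p6, and bases 2 to 8, the seed, are in capitals. The 3p arms shared 1 seed.
mmu-miR-29a-3p: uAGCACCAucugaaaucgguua
mmu-miR-29b-3p: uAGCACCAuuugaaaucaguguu
mmu-miR-29c-3p: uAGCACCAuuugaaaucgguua
The 4 5p arms each had a seed of their own.
mmu-miR-29a-5p: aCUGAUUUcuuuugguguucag
mmu-miR-29b-1-5p: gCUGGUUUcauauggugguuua
mmu-miR-29b-2-5p: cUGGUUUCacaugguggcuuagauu
mmu-miR-29c-5p: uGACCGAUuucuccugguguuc

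Counted from base 1 at the 5′ end, miR-29c-3p differed from miR-29a-3p by a single substitution outside the seed, C10U. Set against miR-29a-3p over 22 bases, miR-29b-3p carried C10U, G18A, U21G and A22U, and it is 1 base longer (23 nt). The 5p arms of the miR-29b hairpins were alike too. With miR-29b-2-5p starting 1 base later, the pair was identical at 19 of 21 shared bases, and the differences, numbered on miR-29b-1-5p, were U11C and U19C. Of the 1122 mouse miRNAs on the array, 881 were found by name in the same table, and among them no miRNA outside the family carried the seed of any of the 7 members.

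The members come from 4 hairpins in 2 clusters, shown from RefSeq GRCm38.p6 with both mature arms in capitals to show which strands the probes were made for. Mir29a lies at chr6:31062660-31062747 and Mir29b-1 at chr6:31063023-31063093, both on the minus strand.
Mir29a: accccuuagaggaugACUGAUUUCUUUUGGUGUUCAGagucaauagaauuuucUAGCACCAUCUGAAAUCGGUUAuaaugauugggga
Mir29b-1: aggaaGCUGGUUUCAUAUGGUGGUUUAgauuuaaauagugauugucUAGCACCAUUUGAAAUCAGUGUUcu
Mir29b-2 lies at chr1:195037040-195037120 and Mir29c at chr1:195037547-195037634, both on the plus strand.
Mir29b-2: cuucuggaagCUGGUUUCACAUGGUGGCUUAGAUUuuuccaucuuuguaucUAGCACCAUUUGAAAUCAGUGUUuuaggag
Mir29c: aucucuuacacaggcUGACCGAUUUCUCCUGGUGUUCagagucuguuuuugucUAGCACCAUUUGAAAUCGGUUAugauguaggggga

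The hairpins of a cluster are close together, with 275 bases between Mir29a and Mir29b-1 and 426 bases between Mir29b-2 and Mir29c. In the RefSeq gene table the chromosome 1 pair lies within the long non-coding RNA gene A330023F24Rik, with Cd46 as the nearest other gene above it, 1336 bases from Mir29c. The chromosome 6 pair overlaps no other gene of the table, and the nearest gene on its upper side, Lncpint, starts 30469 bases from Mir29b-1. Both miR-29b hairpins give the same 3p arm, so the array signal of miR-29b-3p sums over both clusters. Their 5p arms differ and have probes of their own.

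For each probe the deposited files give a signal made from its 10 or 20 spots, on another scale than the mean of those spots, and an error. Probes whose signal is above 3 times their error are summed into the miRNA's total gene signal, and where none of its probes passes that limit the miRNA is called not detected. By that call mmu-miR-29a-3p, mmu-miR-29b-3p, mmu-miR-29c-3p, mmu-miR-29b-1-5p and mmu-miR-29c-5p were detected on all 5 arrays, as were 277 mouse miRNAs in all, and mmu-miR-29a-5p and mmu-miR-29b-2-5p were detected on none. Detection calls were made for 293, 298 and 292 mouse miRNAs on flagellin replicates 1, 2 and 3, and for 317 and 301 on the medium arrays. Arrays differ in brightness, and the 75th percentile of the 277 miRNAs was 281, 293 and 211 on flagellin replicates 1, 2 and 3 and 282 and 246 on medium replicates 1 and 2. Each total gene signal was divided by that percentile, and the quotient is called the relative signal. Probes bind with different strength, so signals of different members are not an order of abundance, and only changes between arrays are read.

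The guide strand miR-29a-3p gave total gene signals of 3912, 3902 and 2147 on flagellin replicates 1, 2 and 3 and of 2995 and 2715 on medium replicates 1 and 2, with deposited errors of 7.33% to 7.37%. Its relative signals were 13.9, 13.3 and 10.2 with flagellin, against 10.6 and 11.03 in medium. Flagellin replicates 1 and 2 were thus above both medium arrays and flagellin replicate 3 was below both, and the groups overlapped. For miR-29c-3p, which differs from it by C10U, the relative signals were 3.31, 3.34 and 2.48 with flagellin and 2.84 and 2.81 in medium. The arrays fell in the same places, with flagellin replicates 1 and 2 high, flagellin replicate 3 low and the medium arrays between them.

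The third guide strand, miR-29b-3p, had another profile. Its total gene signals were 1155, 1970 and 736 with flagellin, against 1395 and 1279 in medium, with errors of 8.89% to 8.96%, and its relative signals were 4.11, 6.72 and 3.49 with flagellin and 4.95 and 5.20 in medium. Here flagellin replicate 2 alone was above both medium arrays, and flagellin replicates 1 and 3 were below both.

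The passenger strands were dim. Relative signals of miR-29b-1-5p were 0.0493, 0.0435 and 0.0502 with flagellin, against 0.0481 and 0.0542 in medium, with errors of 10.8% to 12.7%. The groups overlapped, and the 5 arrays lay within 1.25-fold of each other. The signals of all 4 of its probes were also summed whether or not they passed 3 errors. Its scaled values were then below both medium arrays on all 3 flagellin arrays, while the unscaled sums overlapped. This separation appeared only once probes were added whose signals were at most 0.838 times their error. In that setting the log2 difference was -0.124 (limma adjusted p = 0.900). The share of all miRNAs separated in that setting is not given. Relative signals of miR-29c-5p were 0.0583, 0.0284 and 0.0303 with flagellin and 0.0479 and 0.0514 in medium, with errors of 15.8% to 26.0%. Flagellin replicates 2 and 3 were low, and flagellin replicate 1 was above both medium arrays. On flagellin replicates 2 and 3 the total holds only the longer of its probes. With all probes summed, the signals were 16.4, 13.4 and 10.6 with flagellin, against 13.5 and 12.7 in medium.

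**Figure D1:**
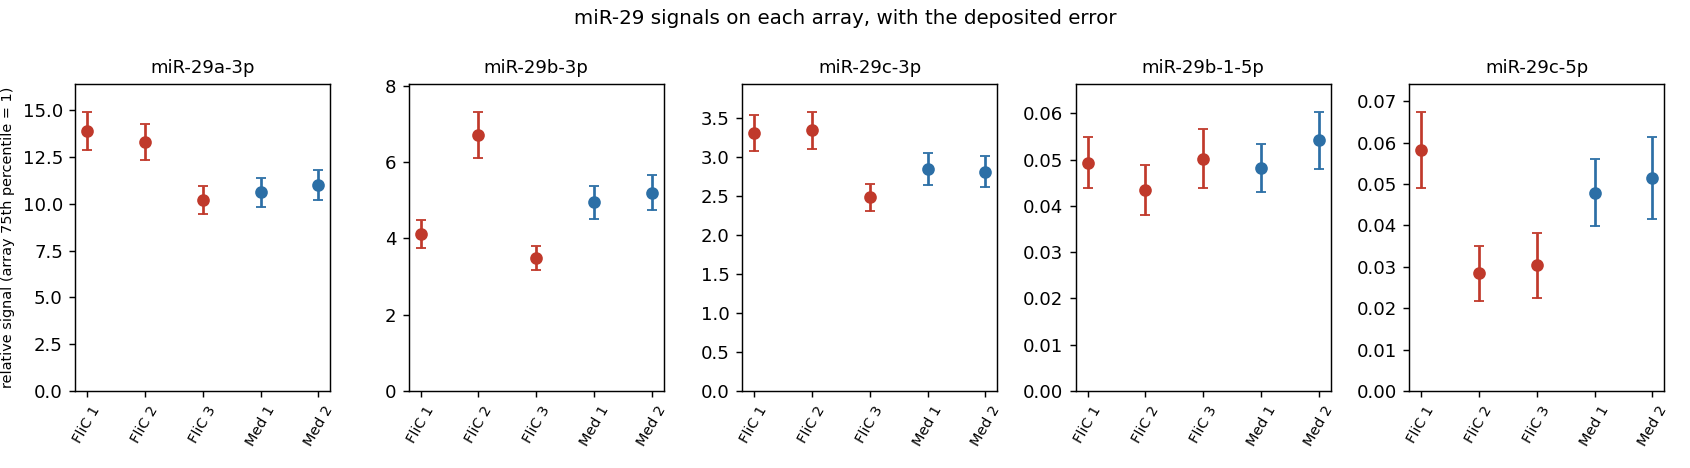
Relative signal (total gene signal divided by the array's 75th percentile, linear axes from 0) of the 5 detected miR-29 members on each array, with flagellin (FliC) arrays in red, medium (Med) arrays in blue and bars for the deposited error. miR-29a-3p and miR-29c-3p were lowest on flagellin replicate 3, and miR-29b-3p was highest on flagellin replicate 2 at 6.72. miR-29c-5p was low on flagellin replicates 2 and 3, where its total lacks its shorter probe.

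The members that were not detected had signals near 0 on every probe. The 4 probes of miR-29a-5p gave signals between -0.113 and 1.12 over the 5 arrays, where 3 errors came to between 2.20 and 2.70, and the highest was 1.39 times its error. The probe pair of miR-29b-2-5p gave signals between -0.765 and 0.161, where 3 errors came to between 4.39 and 5.36. These probes, of 17 and 18 nt, pair with bases 9 to 25 and 8 to 25 of the RefSeq sequence. No fold change is reported for either member.

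The comparison of flagellin with medium was fitted in limma over the 307 mouse miRNAs detected on at least 2 arrays, on log2 relative signals. For no miR-29 member did the difference between flagellin-treated BMDCs and BMDCs in medium alone pass the test. By limma, adjusted p-values under 0.05 were reached by 0 of the 5 members, beside 2 of all 307 miRNAs (0.651%), and unadjusted ones by 0 of 5, beside 18 of 307 (5.86%). In 0 of 5 were all flagellin values above both medium values, beside 35 of 307 (11.4%), and in 0 of 5 were all of them below, beside 27 of 307 (8.79%). Among the members the smallest unadjusted p that limma gave was 0.285. These counts of unadjusted p-values did not hold when 1 flagellin array was left out. Without flagellin replicate 3 the unadjusted limma p was 0.00787 for miR-29a-3p and 0.0123 for miR-29c-3p, beside 71 of all 307 under 0.05. For miR-29b-3p limma gave 0.0312 without flagellin replicate 2, beside 16 of 307. For miR-29c-5p it gave 0.00218 without flagellin replicate 1, beside 11 of 307, and the smallest adjusted p of these was 0.156. The miR-29c-5p value rests on totals without its shorter probe on flagellin replicates 2 and 3. Its longer probe alone had relative signals of 0.0284 and 0.0303 there, against 0.0289 and 0.0304 in medium. The members' differences were positive for 2 and negative for 3, with a median of -0.10, and the median over all 307 was 0.01.

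For miR-29a-3p the mean log2 relative signal was 3.63 ± 0.24 on the flagellin arrays (SD, n = 3) and 3.44 ± 0.04 on the medium arrays (SD, n = 2). The difference of 0.19 (standard error 0.16, limma adjusted p = 0.859) is a 1.14-fold higher mean with flagellin, with a 95% confidence interval from 0.850-fold to 1.54-fold. For miR-29c-3p the difference was 0.09 (standard error 0.16, limma adjusted p = 0.891), with an interval from 0.795-fold to 1.43-fold. For miR-29b-3p the means were 2.20 ± 0.49 on the flagellin arrays (SD, n = 3) and 2.34 ± 0.05 on the medium arrays (SD, n = 2). Its difference was -0.14 (standard error 0.30, limma adjusted p = 0.928), and the interval ran from 0.518-fold to 1.58-fold. These intervals hold no change as well as moderate changes either way. For miR-29b-1-5p the difference was -0.10 (standard error 0.11, limma adjusted p = 0.859), with the narrowest interval of the 5, from 0.765-fold to 1.13-fold. The difference of miR-29c-5p was -0.43 (standard error 0.35, limma adjusted p = 0.859), with an interval from 0.389-fold to 1.42-fold.

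Signs of some of these differences depended on the processing. That of miR-29b-3p depended on 1 array, and that of miR-29c-5p on the detection rule for its probes. When the 75th percentile was taken over all mouse miRNAs, the median difference of all 307 was 0.19, and miR-29b-3p and miR-29b-1-5p stood at 0.04 and 0.08, which is -0.15 and -0.11 relative to that median, a turn of sign that came with a shift of the median of all miRNAs. With no scaling, quantile normalization or the authors' log2 values both stayed negative. Without flagellin replicate 3 the difference of miR-29b-3p was 0.05, and without flagellin replicate 2 it was -0.42. The differences of miR-29a-3p and miR-29c-3p stayed positive in every alternative run, but their size depended on single arrays. Leaving out flagellin replicate 1, 2 or 3 gave 0.11, 0.14 and 0.33 for miR-29a-3p, 0.03, 0.02 and 0.23 for miR-29c-3p, and -0.76, -0.24 and -0.29 for miR-29c-5p. For miR-29b-1-5p, leaving out each array in turn gave -0.19 to -0.02. All 5 arrays were on 1 slide. Both medium arrays lay in column 4 of the slide, flagellin replicates 1 and 2 in column 2 and flagellin replicate 3 in column 3, and an effect of the column cannot be told apart from that of the treatment. Each array row held both groups. In row 1, with flagellin replicates 1 and 3 and medium replicate 2, miR-29b-3p differed by -0.46, and in row 2, with flagellin replicate 2 and medium replicate 1, by 0.44. For miR-29a-3p the values were 0.11 and 0.33, and for miR-29c-3p they were 0.03 and 0.23. For miR-29b-1-5p they were -0.12 and -0.15, and for miR-29c-5p they were -0.29 and -0.76. With array row as a block, limma called 0 of 307 miRNAs after adjustment, and 15 had p-values under 0.05 before it.

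**Figure D2:**
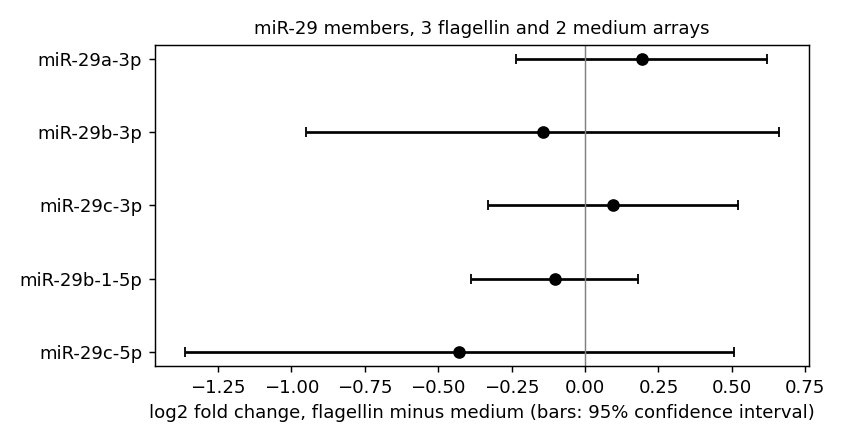
Log2 fold change of the 5 detected miR-29 members, flagellin minus medium, from limma (points) with 95% confidence intervals (bars). Every interval includes 0, and those of miR-29b-3p (-0.95 to 0.66) and miR-29c-5p (-1.36 to 0.51) are the widest of the 5.

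Ratios of members within an array do not depend on the scaling. A change in such a ratio shows unequal change of the members' total gene signals, which also depend on the probes that pass. The ratio of miR-29c-3p to miR-29a-3p was 0.238, 0.251 and 0.244 on flagellin replicates 1, 2 and 3, against 0.268 and 0.255 in medium. All 3 flagellin ratios were below both medium ratios, by little. Among 38 ratios of 3p to 5p arms, 3 (7.89%) were separated in that direction, and the share among ratios of other miRNA pairs is not given. The log2 ratio of miR-29c-3p to miR-29a-3p was lower with flagellin by a mean of -0.10 (-2.03 ± 0.04, n = 3, against -1.94 ± 0.05, n = 2, SD; two-sided exact permutation p = 0.2), where 3 arrays against 2 cannot give a p under 0.1. Leaving out each array in turn gave -0.13 to -0.06, the smallest without medium replicate 1. The ratio of miR-29b-3p to miR-29a-3p was 0.295, 0.505 and 0.343 with flagellin, against 0.466 and 0.471 in medium. Its mean log2 difference was -0.34 (-1.43 ± 0.40, n = 3, against -1.09 ± 0.01, n = 2, SD; two-sided exact permutation p = 0.4), and the flagellin ratios lay on both sides of the medium ratios. Without flagellin replicate 1 that difference was -0.17, and without flagellin replicate 2 it was -0.56. The ratio of miR-29c-3p to miR-29b-3p was 0.805, 0.497 and 0.711 with flagellin and 0.575 and 0.541 in medium (log2 difference 0.24, two-sided exact permutation p = 0.5), a difference of 0.09 and 0.44 without the same arrays. These 3 p-values are unadjusted. Over the 5 arrays the log2 ratio of miR-29c-3p to miR-29a-3p ranged over 0.17, and that of miR-29b-3p to miR-29a-3p over 0.77.

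The small range of the first ratio is set beside the probes, since probes of miR-29a-3p and miR-29c-3p are almost the same sequence. The probes are DNA. Those shown pair from base 3 of miR-29a-3p and miR-29b-3p, and from base 1 of miR-29c-3p, to the 3′ end. They are shown as deposited, with the bases that face a difference from miR-29c-3p (first line) or from miR-29a-3p (other lines) in capitals.
miR-29a-3p, longer probe: taaccgatttcaGatggtgc
miR-29c-3p, longer probe: taaccgatttcaAatggtgcta
miR-29b-3p, longer probe: AACacTgatttcaAatggtgc
Each miR-29a-3p probe has 1 mismatch to miR-29c-3p, and each miR-29c-3p probe has 1 mismatch to miR-29a-3p. The miR-29b-3p probes have 5 mismatches to miR-29a-3p and 4 to miR-29c-3p, overhanging bases included. How much of each other's RNA the miR-29a-3p and miR-29c-3p probes bind was not tested.

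Arm ratios were compared for the 38 pairs of 3p and 5p arms detected on all 5 arrays, with limma on log2 ratios within an array. Of these, 0 had an adjusted p under 0.05 (0%) and 2 an unadjusted p under 0.05 (5.26%). All flagellin ratios were above both medium ratios in 3 pairs (7.89%) and below both in another 3 (7.89%), and neither miR-29 pair was among these 6. The log2 ratio of miR-29b-3p to miR-29b-1-5p was 6.38, 7.27 and 6.12 with flagellin, against 6.68 and 6.58 in medium. The flagellin values lay on both sides, and the difference was -0.04 (standard error 0.35, limma adjusted p = 0.977). Its sign turned without any 1 of flagellin replicate 1 (0.06), flagellin replicate 3 (0.19) or medium replicate 1 (0.01). The log2 ratio of miR-29c-3p to miR-29c-5p was 5.83, 6.88 and 6.35 with flagellin and 5.89 and 5.77 in medium. Flagellin replicates 2 and 3 were above both medium arrays and flagellin replicate 1 lay between them, and the difference was 0.52 (standard error 0.31, limma adjusted p = 0.719). It was 0.79 without flagellin replicate 1 and 0.26 without flagellin replicate 2.

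The low values of miR-29c-5p on flagellin replicates 2 and 3 coincided with the detection call of 1 probe. The array carries a probe of 20 nt and one of 21 nt for it. The longer probe passed 3 errors on all 5 arrays, with signals of 9.96, 8.32 and 6.39 with flagellin, against 8.15 and 7.49 in medium. The shorter probe gave 6.42, 5.12 and 4.23 with flagellin and 5.36 and 5.17 in medium, where 3 errors came to 5.25, 5.59 and 4.78 and to 4.69 and 5.02. It therefore missed the limit on flagellin replicates 2 and 3, narrowly, and its signal was left out of the total there. The sums of both probes were 16.4, 13.4 and 10.6 with flagellin, against 13.5 and 12.7 in medium. With all probes summed, the log2 difference of miR-29c-5p was 0.05 (standard error 0.13, limma adjusted p = 0.934) in place of -0.43, and that of its arm ratio was 0.05 in place of 0.52.

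**Figure D3:**
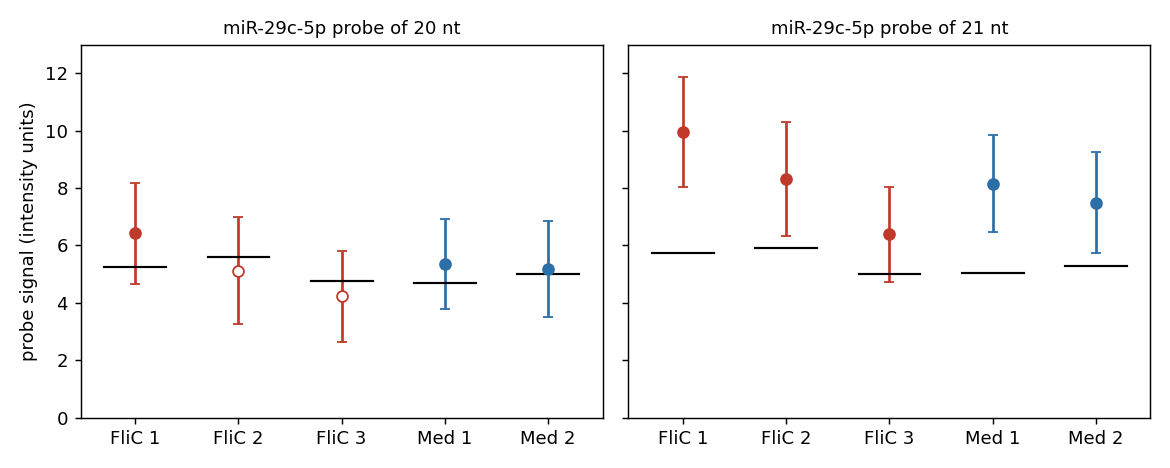
Signal of the miR-29c-5p probes of 20 nt (left) and 21 nt (right) on each array in intensity units, with bars for the deposited probe error and black lines for 3 times that error. Open points, the shorter probe on flagellin replicates 2 and 3 (5.12 and 4.23), are below the line and do not count in the total gene signal.

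Taken singly, 10 of the 18 miR-29 probes passed 3 errors on at least 1 array, and all 18 were compared with two-sided exact permutation tests on scaled signals, unadjusted. Among these 10 the smallest p was 0.4. Before scaling, the longer miR-29b-3p probe had a mean signal of 1142 ± 558 on the flagellin arrays (SD, n = 3) and 1175 ± 69.2 on the medium arrays (SD, n = 2; exact permutation p = 1), and the shorter had 145 ± 69.7 and 163 ± 13.2 (exact permutation p = 0.7, n = 3 and n = 2); on scaled signals the exact permutation p was 1 and 0.6. The lowest p of all, 0.1, the smallest possible, belonged to a miR-29a-5p probe with no signal above 1.39 times its error. On miR-29b-1-5p the probes of 21 and 22 nt, which pair from bases 2 and 1, passed on all 5 arrays. Those of 19 and 20 nt, which pair from bases 4 and 3, passed on none, and the reason was not tested.

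The spread of miR-29b-3p was wide for a bright miRNA, and this rested on flagellin replicate 2. Its SD within groups was 0.40 on the log2 scale, rank 20 of the 277 miRNAs detected on all 5 arrays, whose median was 0.13, and its 5 arrays ranged over 0.94, or 1.92-fold, where the median range was 0.33. Without flagellin replicate 2 the range was 0.57 and the SD 0.12, rank 152, with a median of 0.13. Leaving out single arrays for the SD was chosen after seeing the data. The SD of miR-29a-3p and of miR-29c-3p was 0.20 each, ranks 65 and 66, and without flagellin replicate 3 it was 0.04 and 0.01. That of miR-29b-1-5p was 0.12, rank 160, and that of miR-29c-5p was 0.47, rank 12. The value of miR-29c-5p rests on totals that lack its shorter probe on flagellin replicates 2 and 3. With all probes summed, an alternative chosen after seeing the data, its SD was 0.15, rank 113, and that of miR-29b-3p stayed at 0.40, rank 8. The longer miR-29c-5p probe alone ranged over 0.32, where the total ranged over 1.04. Many of the miRNAs with a wide spread were dim. Among the 42 miRNAs with a mean signal at least that of miR-29c-3p, a limit chosen after the values were seen, the SD of miR-29b-3p ranked 2, after miR-494-3p (0.48), which was also picked after its values were seen, and the median was 0.10. Without flagellin replicate 2 it ranked 18 of these 42.

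**Figure D4:**
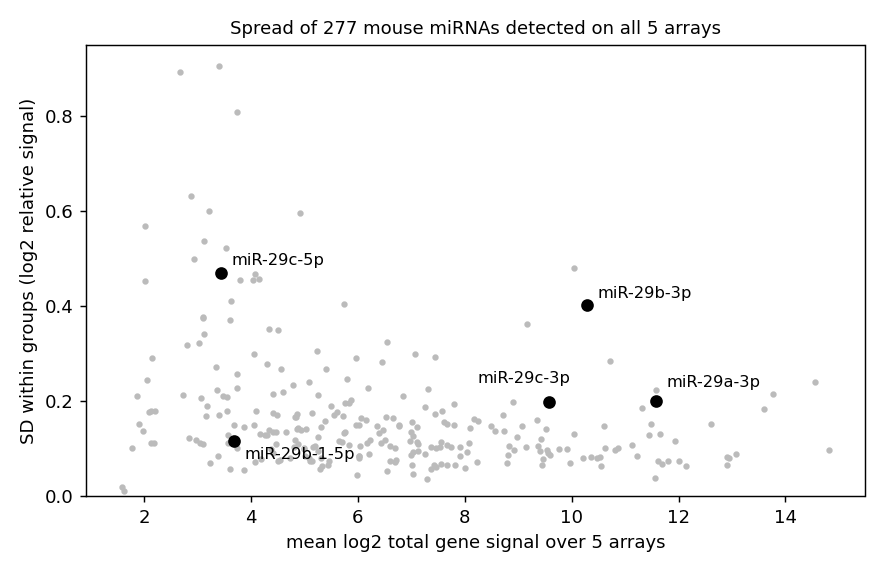
SD within groups of the log2 relative signal against the mean log2 total gene signal for the 277 mouse miRNAs detected on all 5 arrays (grey), with the miR-29 members in black. miR-29b-3p, at 0.40 with flagellin replicate 2 and 0.12 without it, is set against a median of 0.13, and miR-29a-3p and miR-29c-3p are both at 0.20.

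Both miR-29b-3p probes put the arrays in the same order. On the longer probe the relative signal was 3.65, 5.97 and 3.096 with flagellin and 4.34 and 4.57 in medium. The shorter probe gave 0.462, 0.754 and 0.399 with flagellin, against 0.609 and 0.623 in medium. The range over the arrays was 0.95 for the longer and 0.92 for the shorter probe on the log2 scale, and the flagellin minus medium difference was -0.13 and -0.25. Before scaling, and on the scale of spots, the mean and SD over the spots of the longer probe were 2666 ± 83.4, 4568 ± 194 and 1687 ± 77.6 on flagellin replicates 1, 2 and 3 (17, 19 and 18 spots). On medium replicates 1 and 2 they were 3171 ± 263 and 2922 ± 269 (20 and 19 spots).

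Profiles over the 5 arrays were compared by the root mean square difference of log2 relative signals, each miRNA centred on the mean of its group means. Of the 276 other miRNAs detected on all arrays, the nearest to miR-29b-3p were miR-193-3p (0.11), miR-142-5p (0.12) and miR-142-3p (0.14), and the miR-142 arms come from 1 hairpin that is used throughout the blood lineages. The log2 relative signal of miR-142-5p was 0.96, 1.64 and 0.83 with flagellin and 1.19 and 1.04 in medium, and that of miR-193-3p was -2.45, -1.69 and -2.62 with flagellin, against -2.33 and -2.32 in medium. Like miR-29b-3p, both were highest on flagellin replicate 2 and lowest on flagellin replicate 3. From miR-29b-3p, miR-29c-3p was at rank 21 (0.26) and miR-29a-3p at rank 49 (0.30).

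The nearest to miR-29a-3p were miR-140-5p (0.04), miR-106b-5p (0.05) and miR-15a-5p (0.05), and miR-29c-3p was at rank 6 (0.06). The nearest to miR-29c-3p were miR-101b-3p, miR-148a-3p and miR-340-5p (0.04 each), and miR-29a-3p was at rank 10. All of these shared high values on flagellin replicates 1 and 2. Next to miR-29b-1-5p stood miR-30b-3p, miR-222-3p and miR-3473 (0.05 each), and its own 3p arm was at rank 259 (0.38). The nearest to miR-29c-5p were miR-125a-3p (0.25), miR-5099 (0.28) and miR-190b-5p (0.33), again by totals without the shorter probe on flagellin replicates 2 and 3.

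**Figure D5:**
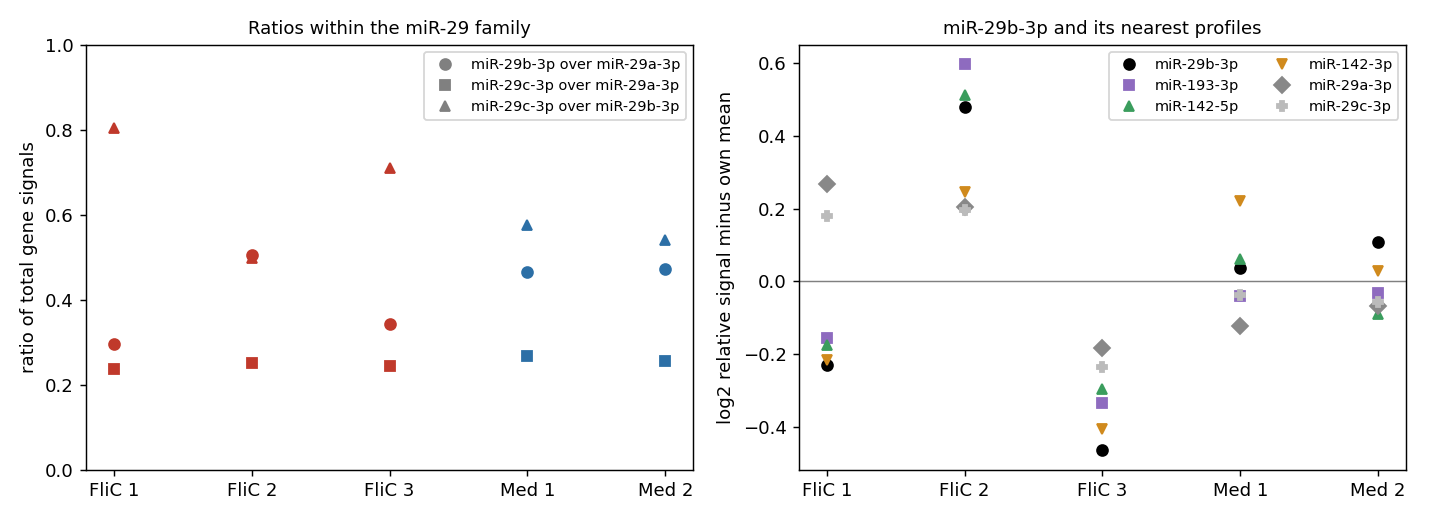
Left, ratios of total gene signals within the family on each array (linear axis, flagellin red, medium blue), and right, log2 relative signal minus each miRNA's own mean for miR-29b-3p, its 3 nearest profiles, miR-29a-3p and miR-29c-3p. The ratio of miR-29c-3p to miR-29a-3p stays between 0.238 and 0.268. miR-29b-3p and its nearest profiles are highest on flagellin replicate 2, miR-142-3p by little, and there miR-29b-3p reaches 0.505 of miR-29a-3p.

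Some markers of other cell types were also highest on flagellin replicate 2, where miR-29b-3p was high, and others were not. Of the 11 stromal and muscle miRNAs listed, all 5 arrays detected 2 and none detected 6, among them miR-143-3p, miR-145-5p and miR-214-3p, and the summed relative signal, with undetected values as 0, was 0.120, 0.322 and 0.123 with flagellin and 0.139 and 0.111 in medium. On flagellin replicate 2 miR-199a-3p reached 0.141, against 0.0199 on flagellin replicate 1 and 0.0198 on medium replicate 1, and it was not detected on the other arrays. Flagellin replicate 2 alone detected miR-199a-5p (0.0401) and miR-199b-5p (0.0254). The 2 markers of that list found on all arrays were not highest there, with miR-206-3p at 0.0554, 0.0652 and 0.0704 with flagellin, against 0.0664 and 0.0624 in medium, and miR-10b-5p at 0.0451, 0.0504 and 0.0528 with flagellin, against 0.0532 and 0.0487 in medium. The endothelial miR-126-3p was at 0.0449, 0.0993 and 0.0266 with flagellin, against 0.0444 and 0.0205 in medium, and its other arm was not detected. The erythroid miR-451 was at 0.0188 and 0.0579 on flagellin replicates 1 and 2 and not detected elsewhere, and both arms of miR-144 were not detected. Red cells had been lysed in the marrow before culture and the cultured cells sorted for CD11c, and the part of other cells in the miR-29b-3p signal was not tested.

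The cells' own lineage was bright on every array. Of the 5 myeloid and haematopoietic miRNAs, every array detected 4, with a sum of 22.9, 25.1 and 21.5 with flagellin and 23.1 and 22.4 in medium. That sum, which holds both miR-142 arms, was also highest on flagellin replicate 2. Both miR-142 arms were highest there, miR-142-3p by little (7.75, against 7.63 on medium replicate 1) and miR-142-5p at 3.12, against 2.28 on medium replicate 1. The other detected members were lower there than on the other flagellin arrays. On flagellin replicates 1, 2 and 3 miR-223-3p was at 12.3, 11.6 and 11.9, and miR-155-5p at 2.97, 2.69 and 2.95. Both arms of the lymphocyte miR-150 and the liver miR-122-5p were not detected on any array. Of the 6 epithelial miRNAs, 5 were detected on none, and miR-200c-3p was at 0.0213 on flagellin replicate 1 and 0.0198 on medium replicate 1.

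The miRNAs known to respond to Toll-like receptors were listed to set the family beside them. Of 17 named, every array detected 10, which were tested, 7 were found on none, and limma called 0 after adjustment. Their differences were positive for 7 and negative for 3, with a median of 0.06. In 4 of the 10 all flagellin values were above both medium values, beside 11.4% of all miRNAs, and in 0 were all of them below, beside 8.79%. The list was chosen with earlier results of these data known, so these counts are no test of it. For miR-155-5p, a regulator of inflammatory signalling, the log2 difference was 0.35 (standard error 0.10, limma adjusted p = 0.65). In the main processing no miR-29 member had such separation of the groups. With all probes summed, scaled values of miR-29b-1-5p were lower on all flagellin arrays, but the unscaled sums overlapped. This separation rested on probes that passed 3 errors on no array, and the log2 difference was -0.124 (limma adjusted p = 0.900). It has no share of all miRNAs in that setting to be set beside.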

How the data were processed

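Total RNA of the 5 samples was labelled with Cy3, hybridized and scanned before deposit, and the deposited intensity files hold, from Agilent Feature Extraction 10.7, background-subtracted spot, probe and total gene signals with errors and other calls (detection, saturation, outlier spots). No spot was saturated. The authors also deposited log2 values, which differ from the log2 of the total gene signals by 1 constant per array. Control spots were left out. Total gene signals were scaled on each array to the 75th percentile of those mouse miRNAs that every array detected. Scaled values under 0.0121, the largest over arrays of the smallest detected value, were set to it before taking log2. limma 3.58.1 (R 4.3.3, empirical Bayes, Benjamini-Hochberg over all miRNAs or arm pairs tested) compared the groups, and single ratios and probes had exact permutation tests over 10 assignments. The limma script was tested on simulated data. Tables and figures were made in Python 3.11.15 with pandas 2.3.3, numpy 2.4.6 and matplotlib 3.10.9. Named miRNAs are all family members, the 3 nearest profiles of each detected member, and lists of Toll-like receptor response miRNAs and cell type markers. Besides these, miR-494-3p is named for its spread and was picked after its values were seen. The members and lists were chosen with earlier results of these data known. The files name genome build mm9, and coordinates printed are those of RefSeq GRCm38.p6. Alternatives covered scaling, floor, detection filter, probe summary, test, blocks and leaving out each array.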

Additional observations from a re-analysis of the deposited data

How the results depend on the processing

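Of 196 values computed under the alternatives, 163 kept their direction and their side of the threshold or stayed within the spread, and no miR-29 member or arm ratio passed an adjusted p of 0.05 under any of those run. The 163 include values that kept their sign but became much smaller. The SD of miR-29b-3p went from 0.40 to 0.12 without flagellin replicate 2, and the miR-29c arm ratio from 0.52 to 0.05 with all probes summed. The cause of each change below was not tested unless it is given. The count of 2 miRNAs called among all tested was 0 after scaling to the 75th percentile of all mouse miRNAs, with no scaling, with quantile normalization, with all probes summed, with probe-level processed signals, with probe-level normexp and quantile normalization, with the replicate block and with array row as a block. It was 1 with only the miRNAs detected on all 5 arrays, with no filter on detection and with the limma trend, and 4 with the floor divided by 10 and with the authors' log2 values. Leaving out each array in turn gave 0 to 1, and limma gave 71 unadjusted p-values under 0.05 without flagellin replicate 3, against 18 with all arrays; where this left 1 medium array, its spread is taken to equal that of the flagellin group. Among arm ratios the count of 0 became 1 when both arms had to be detected on at least 2 arrays only.

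Scaling to the 75th percentile of all mouse miRNAs moved the median of all miRNAs to 0.19, and the log2 fold changes of miR-29b-1-5p and miR-29b-3p to 0.078 and 0.037. For miR-29c-5p it was 0.047 with all probes summed, 0.050 with probe-level processed signals and 0.015 with normexp and quantile normalization, settings in which a probe under 3 errors is not dropped. Leaving out each array in turn gave -0.42 to 0.053 for miR-29b-3p and -0.38 to 0.19 for its arm ratio, which was 0.064 with array row as a block. The shorter miR-29c-5p probe, at 0.0022 on the log2 scale when scaled, was at -0.023 as deposited. The SD of miR-29c-5p within groups, 0.47, was 0.15 with all probes summed, and that of miR-29b-3p, 0.40, was 0.12 to 0.49 leaving out each array in turn, both chosen after seeing the data. The range of miR-29b-3p over the arrays was 1.42 without scaling, which leaves in the differences in brightness between arrays.

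Replicate numbers are shared by 2 pairs of samples, whose deviations from their group means correlated at -0.043 and -0.076 across miRNAs. The 2 medium arrays deviate from their mean by equal and opposite amounts, so these correlations are not separate checks. The labels do not say whether equal numbers pair the samples, and these values cannot decide it. With the replicate block, in which flagellin replicate 3 has no partner and drops out of the difference, the log2 fold change of miR-29b-3p was 0.053 and that of its arm ratio 0.19, and limma gave 39 unadjusted p-values under 0.05 among 307, that of miR-29a-3p (0.0344) among them. The dim 5p arms, a few errors above background, limit what their ratios can show.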
